A study of Mus musculus with 6 samples.

Results

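The genes described here encode the insulin-like growth factors, their receptors and their binding proteins in whole bone marrow of mice given NOX-A12 or left untreated. The members are 9 genes, Igf1, Igf2, Igf1r, Igf2r, Igfbp3, Igfbp4, Igfbp5, Igfbp6 and Igfbp7. Their probe sets are those annotated with exactly 1 gene symbol that is on this list, 27 of the 45037 probe sets and 9 of the 18193 named genes. The list was drawn up with the difference between NOX-A12 and untreated marrow in view, so the differences of its members are descriptions and no test is given for them. Marrow came from 3 SCID/Bg mice given NOX-A12 and from 3 untreated SCID/Bg mice, with 1 mouse per Affymetrix Mouse Genome 430 2.0 array. Both groups share the SCID/Bg background, in which mature lymphocytes are missing and natural killer function is poor. NOX-A12 is a mirror-image RNA aptamer that binds the chemokine CXCL12. The sources used here give no dose, schedule, age or sex.

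IGF1 and IGF2 are small secreted growth factors that signal through the receptor tyrosine kinase IGF1R to the PI3K and AKT kinases, promoting growth and survival. IGF2R, also the cation-independent mannose 6-phosphate receptor, carries IGF2 to lysosomes for degradation and does not signal as a kinase. Binding proteins hold most IGF in tissue fluids, and each can limit or prolong its access to the receptor. In marrow, IGF1 is made by stromal cells, bone-forming cells and macrophages, and IGFBP5 is a product of CXCL12-rich reticular stromal cells.

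Igf1 and Igfbp5 were lower in NOX-A12 marrow by about the same ratio, and the other 7 genes differed less. All 4 Igf1 probe sets were lower, with NOX-A12 to untreated ratios of 0.642 to 0.739. The bright Igfbp5 probe set was lower at a ratio of 0.655. Igf1r was higher at 3 of its 5 probe sets, by an amount that rested on 1 untreated mouse. Ratios (NOX-A12 over untreated) and log2 changes (NOX-A12 minus untreated) were taken after adding 16 to each intensity, so changes of dim probe sets are understated. Errors of changes are standard errors (SE) from a limma fit across all probe sets.

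Across the whole array, limma with Benjamini-Hochberg adjustment called 0 probe sets at the 0.05 threshold, the smallest adjusted value being 0.79. Without adjustment, 2240 of the 45037 probe sets had p under 0.05 in limma, about the share that this threshold passes where nothing differs. Groups did not overlap, with every NOX-A12 mouse below every untreated mouse, at 5.85% of all probe sets, and with every NOX-A12 mouse above at 4%. Of the 27 member probe sets, 5 were lower and 2 were higher without overlap. Since the list was chosen from this contrast, nothing is read from those counts. A negative change was found at 17 of the 27, or 15 without untreated mouse 3, against 50% of all probe sets. The median change was -0.04 over the 9 leading probe sets, where the leading probe set of a gene is the one with the highest mean over the 6 arrays. The same median over all leading probe sets was -0.01. Array medians lay between 44.8 and 45.6 intensity units. A mean at or above the median probe set was reached by 21 of the 27 member probe sets and by the leading probe sets of 7 of the 9 genes, all but Igf2 and Igfbp6. The array of untreated mouse 3 stood apart, with 851 probe sets more than 2-fold away from the median of the remaining 5 arrays, where the same count was 44 to 67 for every other array. Its values are therefore named beside many, but not all, of the results they touch. Precision is limited by the 6 arrays.

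**Figure D1:**
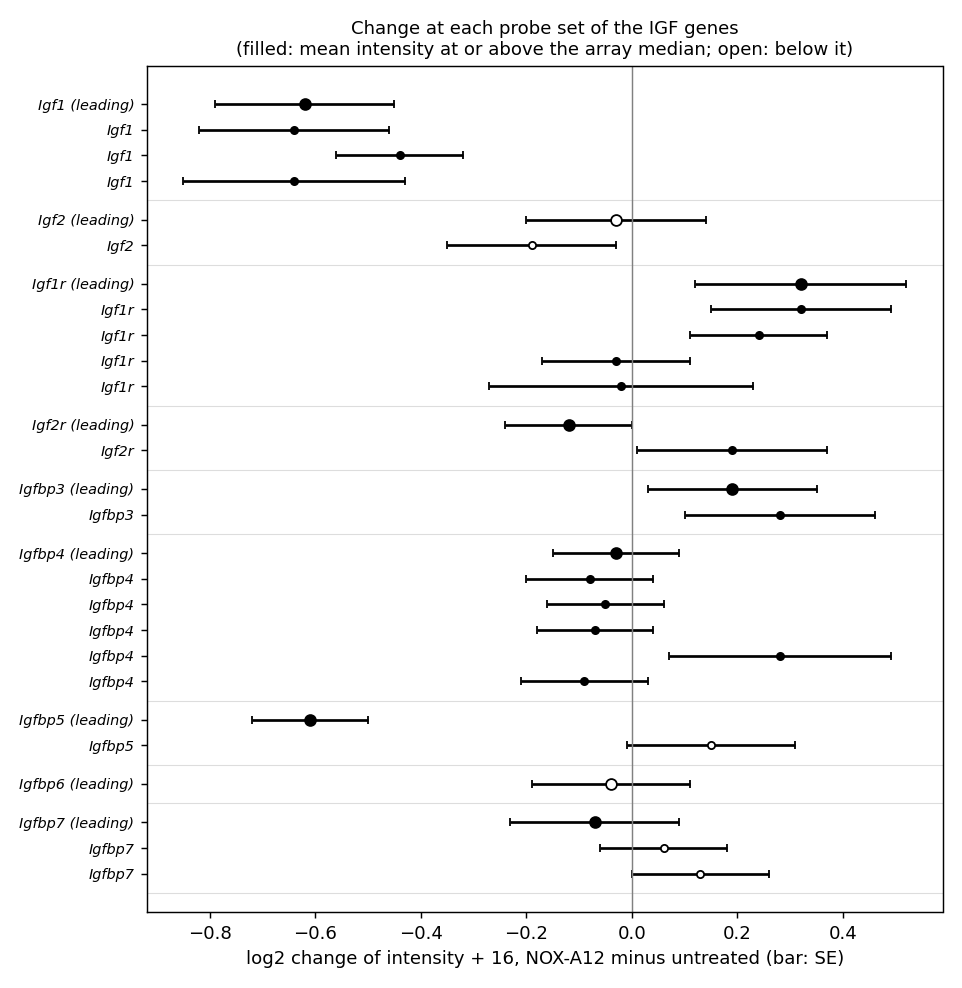
Change at each of the 27 probe sets, grouped by gene, on the log2 scale as NOX-A12 minus untreated with its SE. Filled points have a mean intensity at or above the median probe set. The 4 Igf1 points and the leading Igfbp5 point lie between -0.64 and -0.44, and all other points lie between -0.19 and 0.32.

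The promoters of the genes that differed most, and of Igfbp4 as a binding-protein gene with little difference, are shown here for comparison. They are RefSeq sequences of GRCm38.p6, from 250 bases before to 50 bases after a transcript start, 5′ to 3′ on the gene's strand. The Igf1 and Igfbp4 windows lie inside their genes, downstream of the gene starts at 87858265 and 99040005, which are not shown. Capitals mark matches, on either strand, to core promoter elements. These were the TATA-box motif TATAAA, the upstream motif known as the CAAT box, spelled CCAAT, and the GC-box motif that SP1 is known to bind, spelled GGGCGG.
Igf1, chr10:87860861-87861160, plus strand: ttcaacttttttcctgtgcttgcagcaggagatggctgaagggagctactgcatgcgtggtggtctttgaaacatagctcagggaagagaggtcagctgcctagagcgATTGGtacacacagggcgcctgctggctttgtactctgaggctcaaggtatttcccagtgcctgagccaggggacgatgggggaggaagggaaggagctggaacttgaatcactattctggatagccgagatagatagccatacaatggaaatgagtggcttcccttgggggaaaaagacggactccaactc
Igfbp5, chr1:72874816-72875115, minus strand: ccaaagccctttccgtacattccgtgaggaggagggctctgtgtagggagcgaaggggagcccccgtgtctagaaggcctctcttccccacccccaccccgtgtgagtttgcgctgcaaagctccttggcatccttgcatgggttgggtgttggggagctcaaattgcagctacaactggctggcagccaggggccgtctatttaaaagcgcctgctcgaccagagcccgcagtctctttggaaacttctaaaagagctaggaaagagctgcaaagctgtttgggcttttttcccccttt
Igf1r, chr7:67952007-67952306, plus strand: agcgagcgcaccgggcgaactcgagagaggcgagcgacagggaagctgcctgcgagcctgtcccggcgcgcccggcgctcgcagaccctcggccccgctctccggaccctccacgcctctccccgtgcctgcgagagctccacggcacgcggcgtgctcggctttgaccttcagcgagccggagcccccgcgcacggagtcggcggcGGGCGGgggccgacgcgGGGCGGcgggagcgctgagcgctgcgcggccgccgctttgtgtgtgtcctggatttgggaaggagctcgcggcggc
Igfbp4, chr11:99040994-99041293, plus strand: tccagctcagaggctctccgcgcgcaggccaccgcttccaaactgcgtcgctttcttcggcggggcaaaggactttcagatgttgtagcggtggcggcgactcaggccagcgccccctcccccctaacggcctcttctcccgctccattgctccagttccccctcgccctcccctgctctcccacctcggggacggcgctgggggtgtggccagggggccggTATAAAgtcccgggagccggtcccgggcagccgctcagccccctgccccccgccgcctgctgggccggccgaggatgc
The windows of Igf1 and Igfbp5 were of ordinary base composition, with 52.3% and 56.3% G or C against a median of 52.7% over all 32851 windows. They held 6 and 10 CpG dinucleotides. The Igf1r window was 76.0% G or C with 48 CpG dinucleotides, more G or C than 96.9% of all windows, and the Igfbp4 window was 71.3% with 27. The Igf1 window held 1 match to CCAAT, which 37.4% of all windows hold. The Igfbp5 window held no match to any motif searched. The Igf1r window held 2 matches to GGGCGG, found in 35.7% of all windows, and the Igfbp4 window held 1 TATAAA that began 28 bases before the start, a motif found in 13.6%. Other motifs searched on both strands were the E-box CACCTG (20.2% of all windows), the STAT5-type element TTCNNNGAA (8.3%) and the FOXO-type element TGTTTAC (3.65%). None of these 3 occurred in the 4 windows printed. A match is a string of letters and not a measured binding site.

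Igf1 encodes the ligand that growth hormone induces in liver and that many tissues also make for local use. The gene lies on chromosome 10 at 87858265 to 87937047 (GRCm38.p6). Its leading probe set, 1434413_at, read 121, 121 and 163 in NOX-A12 mice 1, 2 and 3, against 171, 236 and 240 in untreated mice 1, 2 and 3. The groups did not overlap, but NOX-A12 mouse 3 and untreated mouse 1 were close to each other. Means were 135 ± 24.1 in NOX-A12 and 215 ± 38.5 in untreated marrow (SD, n = 3 each), a log2 change of -0.62 ± 0.17. Of all 45037 probe sets, 0.198% had a lower change.

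The other Igf1 probe sets gave the same order of groups. Probe set 1437401_at read 131, 115 and 149 in NOX-A12 mice, against 161, 228 and 258 in untreated mice, a change of -0.64 ± 0.18. Probe set 1452014_a_at read 126, 128 and 136 in NOX-A12 mice, against 154, 201 and 193 in untreated mice, and its change of -0.44 ± 0.12 was the smallest of the 4. Probe set 1419519_at read 69.8, 64.5 and 69.0 in NOX-A12 mice, against 80.1, 115 and 161 in untreated mice, a change of -0.64 ± 0.21. At each probe set untreated mouse 1 was the lowest untreated mouse, and the spread among untreated mice was wider than among NOX-A12 mice. The 4 probe sets read the same RNA samples and are not replicates of each other. With each mouse left out in turn the leading probe set gave -0.76 to -0.54, the larger figure without untreated mouse 1 and the smaller without untreated mouse 3. For 1419519_at the values were -0.86 and -0.42 without the same mice, with untreated mouse 3 the highest there. For 1437401_at the values were -0.82 and -0.50, and untreated mouse 3 was again the highest.

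Igf2 encodes the ligand that dominates fetal growth and is imprinted, with expression from the paternal allele. The gene lies on chromosome 7 at 142650768 to 142666816. Both probe sets were dim. The leading one read 29.9, 26.7 and 19.5 in NOX-A12 mice, against 26.6, 18.4 and 34.6 in untreated mice. The groups overlapped, and the change was -0.03 ± 0.17. The other probe set averaged 10.2 ± 1.65 in NOX-A12 and 14.3 ± 6.40 in untreated marrow (SD, n = 3 each), with untreated mouse 3 at 21.5. Values this low are near the bottom of the array's range, and no detection calls were used here.

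**Figure D2:**
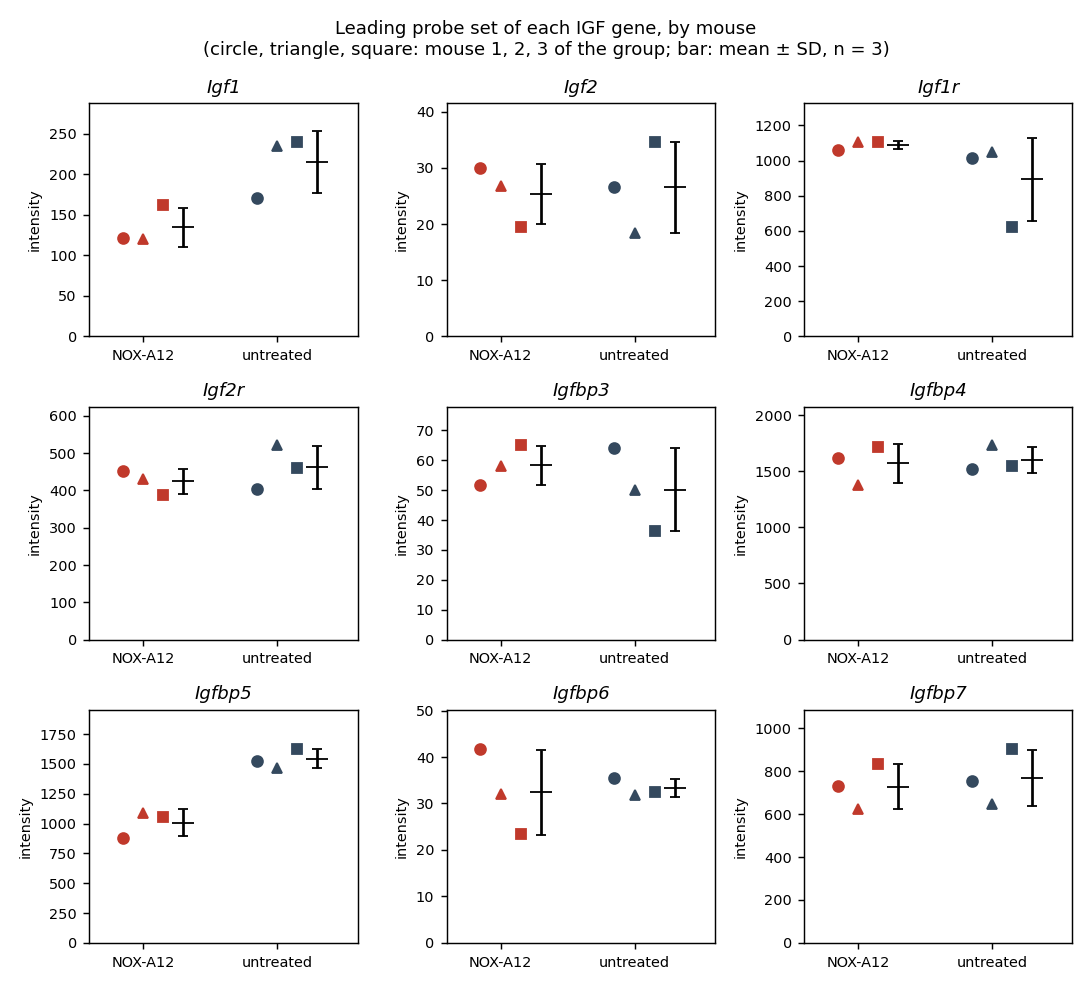
Intensity of the leading probe set of each of the 9 genes, by mouse, with the NOX-A12 mice left of the untreated mice and the mean ± SD beside each group. Each panel starts at 0 and has its own scale, so heights are not comparable between genes. Igf1 and Igfbp5 are lower in every NOX-A12 mouse than in every untreated mouse, and for Igf1r the low point is untreated mouse 3 at 619.

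Igf1r encodes the signalling receptor of both ligands and lies on chromosome 7 at 67952257 to 68233668. Its leading probe set, 1428967_at, read 1063, 1104 and 1103 in NOX-A12 mice, against 1015, 1046 and 619 in untreated mice. The NOX-A12 mice were above all untreated mice, but only untreated mouse 3 was far from the rest. The change was 0.32 ± 0.20, and 0.08 without untreated mouse 3. Probe set 1452982_at gave 729, 792 and 805 in NOX-A12 mice, against 691, 722 and 466 in untreated mice, a change of 0.32 ± 0.17 and 0.13 without untreated mouse 3. Untreated mouse 3 was again the low array. Probe set 1426565_at gave 0.24 ± 0.13 with overlapping groups, and 0.13 without untreated mouse 3. At the remaining probe sets the changes were -0.03 ± 0.14 and -0.02 ± 0.25. Both changed sign with some mouse left out, from -0.21 to 0.23 at 1452108_at.

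Igf2r encodes the receptor that clears IGF2 and sorts lysosomal enzymes, and lies on chromosome 17 at 12682406 to 12769706. Its leading probe set read 452, 432 and 388 in NOX-A12 mice, against 405, 521 and 461 in untreated mice, a change of -0.12 ± 0.12. The other read 381, 417 and 434 in NOX-A12 mice, against 361, 467 and 271 in untreated mice, a change of 0.19 ± 0.18. The probe sets disagreed in sign, the groups overlapped at each, and the low value of 271 was again untreated mouse 3. Without that mouse the changes were -0.11 and -0.00.

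Igfbp5 encodes a binding protein that attaches to extracellular matrix and bone mineral, and lies on chromosome 1 at 72858065 to 72874865. Its leading probe set, 1452114_s_at, read 879, 1088 and 1052 in NOX-A12 mice, against 1527, 1469 and 1627 in untreated mice. The groups were well apart, and the highest NOX-A12 mouse was below the lowest untreated mouse by more than the range within either group. Means were 1007 ± 112 in NOX-A12 and 1541 ± 79.7 in untreated marrow (SD, n = 3 each), a change of -0.61 ± 0.11. It lay between -0.67 and -0.52 with each mouse left out, and was -0.57 without untreated mouse 3. The suffix of this probe set marks probes that can match several transcripts. The other probe set, 1422313_a_at, was dim, at 7.72 ± 1.82 in NOX-A12 and 5.61 ± 4.50 in untreated marrow (SD, n = 3 each), and gave 0.15 ± 0.16. The Igfbp5 difference therefore rests on 1 probe set.

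Igfbp4 encodes a secreted binding protein that mainly restrains IGF action and is inactivated by the protease PAPP-A. It lies on chromosome 11 at 99040005 to 99052655 and has 6 probe sets. The leading one, 1437405_a_at, read 1614, 1380 and 1716 in NOX-A12 mice, against 1517, 1729 and 1550 in untreated mice. The groups overlapped and the change was -0.03 ± 0.12. Of the other 5, 4 lay between -0.09 and -0.05. The remaining one, 1421992_a_at, gave 0.28 ± 0.21, with 210, 208 and 228 in NOX-A12 mice, against 218, 203 and 117 in untreated mice. Without untreated mouse 3 it gave 0.03.

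Igfbp7 encodes a relative with low affinity for IGFs that is abundant in blood vessels, and lies on chromosome 5 at 77349240 to 77408045. Its leading probe set read 730, 621 and 831 in NOX-A12 mice, against 753, 646 and 905 in untreated mice. The groups overlapped almost fully, at a change of -0.07 ± 0.16. Its 2 dimmer probe sets gave 0.06 ± 0.12 and 0.13 ± 0.13. At the dimmest, 5 of the 6 mice read exactly 1.00, a value that many dim probe sets share on these arrays, and NOX-A12 mouse 3 read 6.40.

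Igfbp3 encodes the main carrier of IGFs in blood, and lies on chromosome 11 at 7206086 to 7215498. Its leading probe set read 51.8, 58.1 and 64.9 in NOX-A12 mice, against 63.9, 50.2 and 36.2 in untreated mice, a change of 0.19 ± 0.16 with overlapping groups. Without untreated mouse 3 the change was 0.03. The other probe set, 1423062_at, gave 0.28 ± 0.18 with overlapping groups, and 0.27 without untreated mouse 3. With each mouse left out it lay between 0.16 and 0.43. Igfbp6, whose product prefers IGF2, lies on chromosome 15 at 102144186 to 102149512. Its only probe set was dim, with 41.8, 32.0 and 23.4 in NOX-A12 mice, against 35.5, 31.9 and 32.5 in untreated mice, and a change of -0.04 ± 0.15.

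**Figure D3:**
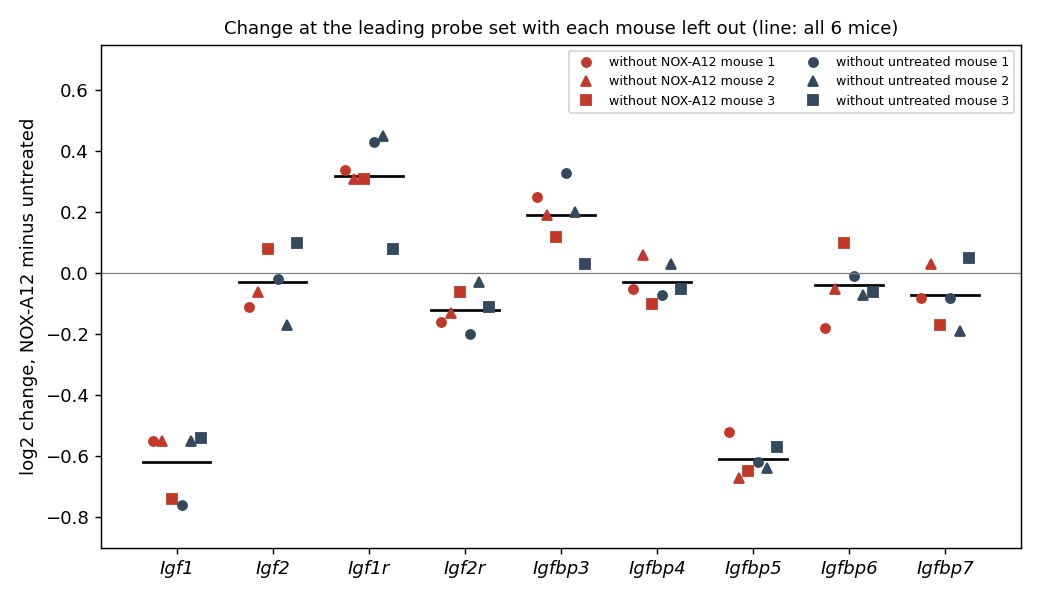
Log2 change at the leading probe set of each gene with each mouse left out in turn, beside the value from all 6 mice (line). Igf1 stays between -0.76 and -0.54 and Igfbp5 between -0.67 and -0.52, while Igf1r comes to 0.08 without untreated mouse 3.

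The members did not share 1 pattern over the mice. Values centred on the mean of the 6 mice put the leading Igf1 probe set at -0.43, -0.44 and -0.05 in NOX-A12 mice 1, 2 and 3, and at 0.01, 0.44 and 0.47 in untreated mice 1, 2 and 3. The leading Igfbp5 probe set stood at -0.49, -0.19 and -0.24 in NOX-A12 mice, and at 0.29, 0.24 and 0.38 in untreated mice. Igf1 thus differed widely among untreated mice, while Igfbp5 was nearly even among them. By the root mean square difference of centred log2 values over the 6 mice, the genes most like Igf1 among 10547 candidates were Cep83os (0.0631), Phex (0.0721) and Ptgfrn (0.0759), against a median of 0.377 over candidates. Phex encodes an endopeptidase of osteoblasts and osteocytes. Its change of -0.52 was the lowest of 8 measured markers of those cells. Their median was -0.13, with 5 lower and 3 higher. Those most like Igfbp5 were Mpdz (0.0942), Acbd4 (0.0955) and Plpp3 (0.102), at a median of 0.338. For Igf1r they were Rpf1 (0.0308), Chd4 (0.0331) and Mgat2 (0.0374), at a median of 0.315. Like Igf1r, all 3 were low in untreated mouse 3 and nearly even elsewhere, so their likeness rests on that outlying array. Rpf1 read 137 there against 232 to 246 in the other mice, Chd4 291 against 520 to 551, and Mgat2 421 against 713 to 768. The medians over candidates lay near the spread of each member around its own mean, 0.36 for Igf1, 0.32 for Igfbp5 and 0.29 for Igf1r. That spread is the distance to a gene with the same value in every mouse. With only 6 mice, close matches occur among so many candidates, and the distances describe these arrays only.

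**Figure D4:**
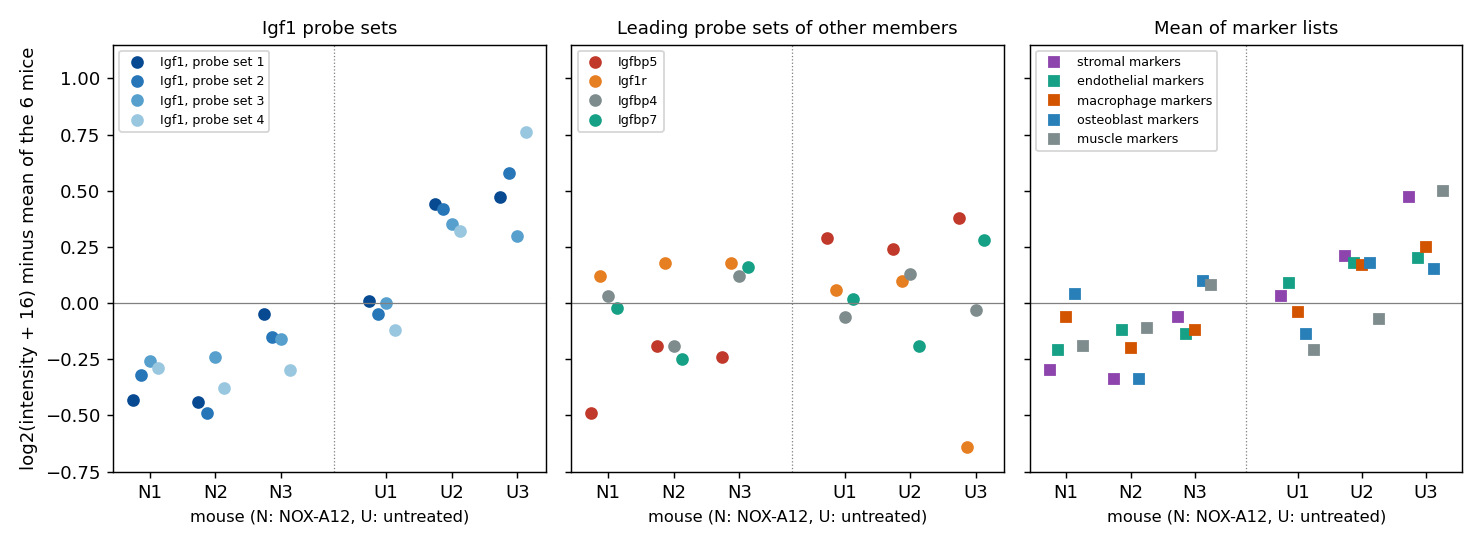
Log2(intensity + 16) minus the mean of the 6 mice, for the Igf1 probe sets in order of brightness (left), the leading probe sets of 4 other members (middle) and the mean of each marker list (right), with NOX-A12 mice left of untreated mice. Untreated mouse 1 is the lowest untreated mouse for Igf1, Igfbp5 is nearly even among untreated mice, and Igf1r is at -0.64 in untreated mouse 3.

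Markers of cell types that can make IGF family products were set beside these values. In whole marrow, fewer cells of a type and less RNA per cell cannot be told apart. All 11 stromal reticular markers were lower in NOX-A12 marrow, with a median change of -0.47, and their summed intensity was 5648 to 7431 in NOX-A12 mice against 7553 to 10280 in untreated mice. Cxcl12, whose product NOX-A12 binds, made up the largest part of those sums, averaging 2887 in NOX-A12 and 3790 in untreated marrow. The sums are apart only with that gene included. Groups did not overlap for 5 of the 11. All 12 endothelial markers were lower, with a median of -0.30 and sums of 1129 to 1199 in NOX-A12 mice against 1385 to 1623 in untreated mice. Pecam1 (-0.01 ± 0.20), Emcn (-0.03 ± 0.09) and Eng (-0.05 ± 0.11) differed by less than their errors, and groups did not overlap for 6 of the 12. Over the leading probe sets of all named genes, 52.7% were lower and 6.65% were lower without overlap. The marker lists were chosen with earlier results of these data known. Neither list had a member whose mean was below 16 intensity units. Of 12 resident macrophage markers 11 were lower, with a median of -0.29, but their sums of 7512 to 8422 in NOX-A12 mice overlapped those of 8046 to 9541 in untreated mice. Of 8 measured osteoblast and osteocyte markers 5 were lower, with a median of -0.13 and overlapping sums of 2273 to 3109 in NOX-A12 and 2745 to 3512 in untreated mice. Mepe alone of these was below 16. Without untreated mouse 3 the medians were -0.35 for stromal, -0.36 for endothelial, -0.15 for macrophage and -0.12 for osteoblast markers, with 11 of 11, 11 of 12, 12 of 12 and 5 of 8 lower. None of these markers passed limma across the array. The medians of the stromal, endothelial, macrophage and osteoblast lists thus had the same sign as the changes of Igf1 and Igfbp5, as did those of the B lineage, fibroblast, megakaryocyte and muscle markers given next, and their part in those differences was not tested. The leading probe sets of Igfbp4 and Igfbp7 differed by less than their errors on the same arrays.

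Markers of other cells and tissues were read in the same way. Of 8 connective tissue fibroblast markers 5 were lower (median -0.19), with sums of 1108 to 1250 in NOX-A12 and 1195 to 1364 in untreated mice, and Clec3b, Dpt and Mfap5 were below 16. Of 7 skeletal muscle markers 4 were lower (median -0.02), with sums of 299 to 362 in NOX-A12 and 311 to 679 in untreated mice, and Acta1 and Tnnt3 below 16. Untreated mouse 3 stood 0.50 above the mean of the 6 mice for the muscle list and 0.47 above it for the stromal list. The muscle value rests largely on 1 gene, Myh1, which read 355 in that mouse against 8.3 to 24.95 in the others. Of 6 smooth muscle and pericyte markers 1 was lower (median 0.21), with sums of 716 to 984 in NOX-A12 and 738 to 878 in untreated mice and Tagln, Myh11 and Des below 16. The 5 measured B lineage markers were all lower (median -0.49), with sums of 2366 to 3235 in NOX-A12 and 3414 to 4136 in untreated mice. The megakaryocyte median was -0.14, from sums of 12460 to 14520 in NOX-A12 and 11800 to 14950 in untreated mice. Neutrophil markers had sums of 70360 to 72120 in NOX-A12 and 68680 to 72780 in untreated mice, and erythroid markers 23140 to 24400 in NOX-A12 and 21780 to 25510 in untreated mice. Both of these blood lists had a median of 0.00, in a tissue labelled as marrow. Hba-a1 of the erythroid list was below 16 at its leading probe set, 1453574_at, while Alas2, Klf1, Car1 and Slc4a1 averaged 2908 to 9276. The Hba-a1 value is that of 1 probe set and is not read as the level of the gene's transcript. The neutrophil marker S100a8 averaged 16600, near the highest value on these arrays, 16790. Without untreated mouse 3 the medians were -0.11 for fibroblast, 0.03 for muscle, 0.15 for smooth muscle and pericyte, -0.45 for B lineage, -0.01 for megakaryocyte, -0.05 for neutrophil and -0.07 for erythroid markers.

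The rest of the IGF axis was read from 8 lists with 73 genes, of which 69 had a probe set of their own. Of these, 38 were lower and 31 higher, with a median change of -0.01. None passed limma when adjusted across the array, where the lowest adjusted p was 0.926, and 6 (8.7%) had an unadjusted p under 0.05, against 5.29% of the leading probe sets of all named genes. Groups did not overlap for 8 lower genes (11.6%) and 2 higher genes (2.9%), where the leading probe sets of all named genes gave 6.65% and 3.92%. These shares describe the lists and were not tested against the rest. Without untreated mouse 3 the list medians ran from -0.13 to 0.14.

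Among the other binding proteins and complex partners, 1 of 4 was lower and 3 were higher, with a median of 0.21. Igfbp2, which encodes a circulating binding protein, read 70.9, 67.0 and 68.8 in NOX-A12 mice, against 65.7, 46.7 and 60.7 in untreated mice, a change of 0.21 ± 0.12, or 0.10 without untreated mouse 2. The NOX-A12 mice lay just above the untreated mice. Igfals, the acid-labile subunit of the blood complex, was dim and gave 0.20 ± 0.12, and Igfbp1 and Igfbpl1 were also below 16. In the list of proteases that cleave IGF-binding proteins and their inhibitors, 4 of 7 were lower, with a median of -0.10. Adam12, a membrane protease that can cleave IGFBP3 and IGFBP5, read 32.3, 28.4 and 33.8 in NOX-A12 mice, against 41.6, 46.0 and 56.1 in untreated mice, without overlap. Its change of -0.42 ± 0.11, or -0.33 without untreated mouse 3, did not pass the limma test (adjusted p = 0.926). Stc1, a stanniocalcin that inhibits PAPP-A, gave 0.20 ± 0.15, and 0.04 without untreated mouse 2.

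Downstream of the receptors, the PI3K, AKT, mTOR and FOXO list had 9 of 17 genes lower and a median of -0.00. Foxo1, a transcription factor that AKT excludes from the nucleus, gave -0.17 ± 0.10 with NOX-A12 mice below untreated mice, and -0.09 without untreated mouse 1. Pik3r2, a regulatory subunit of PI3K, gave 0.39 ± 0.25 with overlap, ranging from 0.24 without NOX-A12 mouse 2 to 0.69 without NOX-A12 mouse 3. Insulin receptors and adaptors had 4 of 11 lower and a median of 0.01. Their members with the smallest unadjusted p were the docking proteins Irs2 and Irs1, which went opposite ways. Irs2 averaged 174 ± 17.9 in NOX-A12 and 128 ± 33.9 in untreated marrow (SD, n = 3 each), a change of 0.42 ± 0.18, or 0.24 without untreated mouse 3. Irs1 averaged 38.6 ± 6.61 in NOX-A12 and 51.7 ± 10.4 in untreated marrow (SD, n = 3 each), a change of -0.31 ± 0.15, or -0.19 without untreated mouse 2 and -0.20 without NOX-A12 mouse 2. Both overlapped between groups, and neither passed the limma test (adjusted p = 0.967).

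Growth hormone input to Igf1 had 5 of 6 genes lower, with a median of -0.10. Ghr, the growth hormone receptor, read 85.5, 76.8 and 103 in NOX-A12 mice, against 110, 108 and 147 in untreated mice. Its groups did not overlap, and the change of -0.40 ± 0.15, or -0.27 without untreated mouse 3, did not pass the limma test (adjusted p = 0.967). Jak2, the kinase bound to that receptor, gave -0.13 ± 0.11, ranging from -0.05 without NOX-A12 mouse 1 to -0.20 without NOX-A12 mouse 3. Of the IGF2 mRNA-binding proteins and imprinted growth genes, 5 of 6 were lower, with a median of -0.15. Plagl1, an imprinted transcription factor, read 212, 215 and 222 in NOX-A12 mice, against 257, 304 and 287 in untreated mice, without overlap. It gave -0.36 ± 0.10 (limma adjusted p = 0.926), while Airn, the antisense transcript of the Igf2r locus, gave -0.22 ± 0.13 with overlap, and -0.09 without untreated mouse 3. Mannose 6-phosphate sorting genes, which share the lysosomal role of Igf2r, had 4 of 7 lower and a median of -0.02. Of these Nagpa, an enzyme that uncovers the mannose 6-phosphate tag, gave 0.17 ± 0.09, and the adaptor Gga2 gave -0.11 ± 0.09, or -0.07 without NOX-A12 mouse 1.

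Other proteins with an IGFBP-type N-terminal domain had 8 of 13 lower and a median of -0.10, with the widest range of the 8 lists, -0.93 to 0.25. Crim1, a membrane protein that binds bone morphogenetic proteins, read 143, 131 and 142 in NOX-A12 mice, against 167, 210 and 203 in untreated mice. Esm1, a proteoglycan of activated endothelium, read 110, 110 and 174 in NOX-A12 mice, against 191, 264 and 344 in untreated mice. Neither gene overlapped between groups. Crim1 gave -0.43 ± 0.11 and Esm1 -0.93 ± 0.24, and neither passed the limma test (adjusted p = 0.926). Without untreated mouse 3 they gave -0.39 and -0.74.

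**Figure D5:**
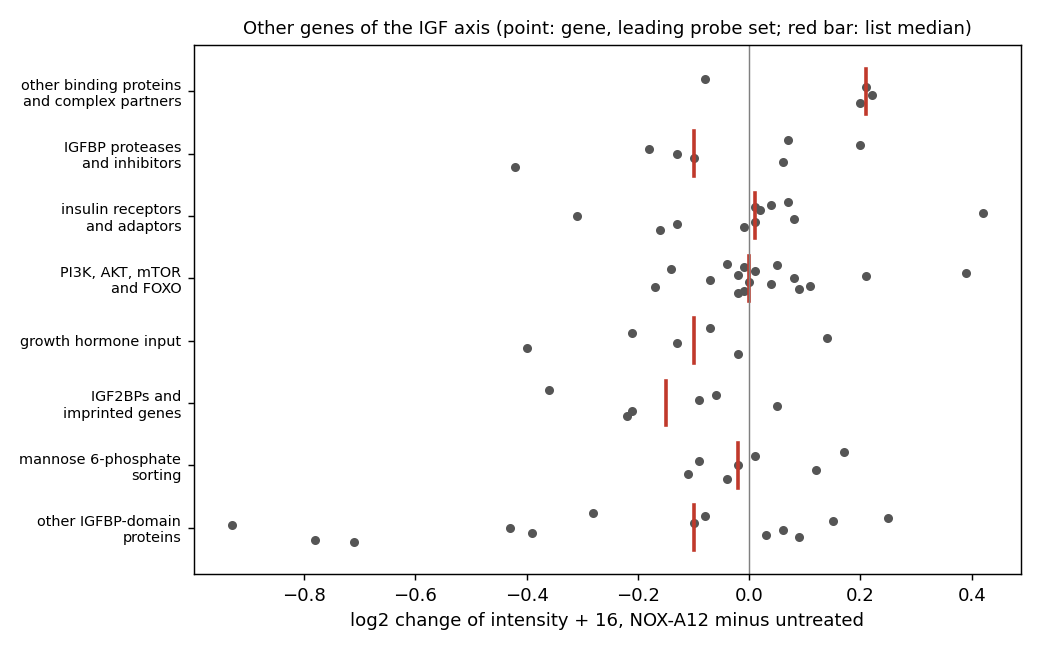
Log2 change of each other gene of the IGF axis at its leading probe set, NOX-A12 minus untreated, by list, with the list median as a red bar. Medians of the 8 lists run from -0.15 to 0.21, and the gene farthest to the left is Esm1 at -0.93.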

How the data were processed

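Total RNA from whole marrow was hybridised to 1-colour arrays, per the labels' protocols, with groups and mouse numbers read from the titles, which count separate animals. The authors deposited 1 table of linear probe-set intensity values for the series, from 0.66 to 16790; its software and normalization are not stated in the sources used here. On the log2 scale the array medians spanned 0.0193, and the values were used without further normalization. Of 45037 probe sets, 34945 had 1 symbol in the platform annotation, 932 had several and 9160 had none listed.

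Deposited intensities were transformed to log2(intensity + 16) and compared by limma 3.58.1 under R 4.3.3 (lmFit and eBayes, two-sided, without covariates), adjusting by Benjamini-Hochberg across the whole table at a threshold of 0.05. Replicate spread was 0.16 on the log2 scale (median residual SD). The fit was tested on simulated data whose changes were larger than any change given here. That test does not show whether changes of the reported size would be called. Members, lists and tests were chosen with earlier results of these data known. All member probe sets are given; other lists name the 2 genes with the smallest p, and for each member the 3 genes nearest in pattern were computed. Clone and predicted symbols were passed over there. Promoters came from RefSeq (GRCm38.p6), which matched all 9 genes. Alternatives were offsets of 1 and 64, median centring, quantile normalization, a variance trend, dropping dim probe sets, a block for mouse number, dropping each mouse in turn, dropping probe sets that can match several transcripts, a threshold of 0.1 and means over a gene's probe sets.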

Additional observations from a re-analysis of the deposited data

How the results depend on the processing

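No setting brought a probe set past the limma threshold, with 0 calls over all probe sets and 0 among the other IGF axis genes in all 15 fits. The fit reported, with all 6 mice and an offset of 16, also gave 0 at an adjusted p under 0.1. The lowest adjusted p over the fits was 0.0631, without untreated mouse 1. The mouse numbers name different animals. Deviations of same-numbered mice correlated at -0.177, 0.092 and 0.043, and those of differently numbered mice from -0.339 to 0.367. With so few mice these correlations cannot decide whether the numbers pair the mice. The fit with the mouse number as a block also gave 0 calls. The count of lower member probe sets was 17 as reported, 14 of the 21 left by the filter on dim probe sets, 13 without probe sets that can match several transcripts, and 12 to 18 with each mouse left out. The median over the 9 leading probe sets was -0.11 to -0.05 with each mouse left out, the lowest value without NOX-A12 mouse 1. The counts of members without overlap were 5 to 7 lower and 2 to 4 higher with each mouse left out, and 4 were higher without NOX-A12 mouse 1 or untreated mouse 1. Fewer mice make separate groups easier to reach, and shares over all probe sets were not computed for these fits. Nothing is read from these counts. At each of the 27 probe sets the change kept its sign under the settings that kept all mice, where the setting kept that probe set. After rounding to 2 decimals, 11 of the 27 changed sign with some mouse left out. None of them was a probe set of Igf1 or the leading one of Igfbp5 or Igf1r. The dimmer Igf2r probe set, at -0.00 without untreated mouse 3, is not among the 11 but is among the 15 lower without that mouse. Leaving out probe sets that can match several transcripts removes the one that carries the Igfbp5 difference (-0.61), and the remaining one gave 0.15. Means over a gene's probe sets gave -0.23 for Igfbp5 and -0.58 for Igf1, and turned the sign of Igf2r (0.04, against -0.12 at the leading probe set) and Igfbp7 (0.04, against -0.07). Offsets mattered at dim probe sets: with an offset of 1, the dim Igfbp5 probe set gave 0.61 and the dimmest of Igfbp7 gave 0.63. Signal near the bottom of the range limits Igf2, Igfbp6 and these probe sets.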

Other observations

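A further probe set is annotated to both Airn and Igf2r and was left out of the member list for that reason. It was dim, with 11.9, 10.1 and 2.53 in NOX-A12 mice, against 5.0, 2.15 and 9.77 in untreated mice, and gave 0.15 ± 0.19 (SE).

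Genes of the CCN family, matrix-associated proteins with an IGFBP-type domain, were measured beside the members and named here after their values were seen. Ccn1 averaged 14.7 in NOX-A12 and 36.9 in untreated marrow, a log2 change of -0.71 ± 0.32. Ccn2 averaged 113 in NOX-A12 and 213 in untreated marrow, a change of -0.78 ± 0.38. Both overlapped between groups, and without untreated mouse 1 or 3 they gave -1.09 or -0.48 for Ccn1 and -1.20 or -0.54 for Ccn2. Ccn5 averaged 38.1 in NOX-A12 and 55.8 in untreated marrow, without overlap, at -0.39 ± 0.15, and at -0.26 without untreated mouse 1. Ccn3, Ccn4 and Ccn6 gave 0.09 ± 0.15, 0.03 ± 0.14 and 0.06 ± 0.11. None passed the limma test (adjusted p = 0.967 for Ccn1, Ccn2 and Ccn5).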
